A study of Homo sapiens with 12 samples.

Results

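The mitochondrial carrier family comprises the SLC25 proteins, the uncoupling proteins and the outer membrane relatives MTCH1 and MTCH2. Its genes were taken by symbol (SLC25A followed by a number, plus UCP2, UCP3, MTCH1 and MTCH2), leaving out the citrate carrier SLC25A1, which is itself the target of one of the inhibitors used. This gave 51 genes of the 57500 listed, and 45 of them were among the 16251 genes with enough counts to be tested. The 6 that were not tested were SLC25A2, SLC25A31, SLC25A41, SLC25A47, SLC25A48 and SLC25A52. SLC25A48 had 0 counts in all 12 libraries, and in the other 5 no library held more than 8 counts.

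RNA was sequenced from MRC5 cells, a human embryonic lung fibroblast line, in 4 groups of 3 libraries. Prol cells were proliferating and not irradiated. Sen(IR) cells received 20 Gy of X-rays and were collected at day 10 to 12. Sen(IR)+UK5099 cells were irradiated alike and kept in 100 µM UK5099, an inhibitor of the mitochondrial pyruvate carrier (MPC1 and MPC2). Sen(IR)+CTPI2 cells were irradiated alike and kept in CTPI2, an inhibitor of SLC25A1. The study's methods name more than 1 CTPI2 dose, and the dose used for the sequenced cells is not given in the sources used here. By these methods both inhibitors were added 1 day after irradiation and kept in the medium for 12 days. Irradiation was thus common to all groups except Prol, and both inhibitor comparisons share the same 3 Sen(IR) libraries. All libraries come from 1 cell line, and the labels do not say whether the 3 libraries of a group were separate cultures. The study's figure legends call the sequenced samples independent experiments for CTPI2 and independent conditions for UK5099. The p-values measure the spread between these libraries.

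Most carriers of this family sit in the inner mitochondrial membrane and exchange one metabolite for another between the cytosol and the matrix. The ADP/ATP carriers export ATP, the phosphate carrier supplies phosphate to ATP synthase, and other members move amino acids, nucleotides, cofactors, dicarboxylates, iron or acylcarnitines. A few relatives work at the outer membrane, in protein insertion or in mitochondrial shape. The proteins are made in the cytosol and brought to the inner membrane by the TOM complex, the small TIM chaperones and the TIM22 translocase.

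Library totals ran from 20597736 to 28245693 counts. Levels are given as CPM, in which each library's counts are scaled to the same total, with TMM factors correcting for differences in composition. A gene was called higher or lower when edgeR's quasi-likelihood test gave an adjusted p (Benjamini-Hochberg over all 16251 genes) under 0.05 with a log2 fold change above 0.5 or below -0.5. The fibroblast label was checked with 10 fibroblast markers, of which COL1A1 stood at 1502.5 CPM or more and LUM at 341.5 CPM or more in the UK5099 libraries. LUM went down to 260 CPM in Prol. FAP stood at only 13.2 to 13.3 CPM with UK5099, against 142.6 to 147.4 CPM in Sen(IR). Of 10 markers of epithelial, endothelial and blood cells, EPCAM reached at most 1.28 CPM, VWF at most 1.11 CPM and CD14 at most 4.87 CPM in any library, and the other 7 at most 0.350 CPM. CD14 was called higher in Sen(IR) than in Prol (log2 fold change 4.09 ± 0.30 SE). With UK5099, 6 of the 10 fibroblast markers were called lower, where 12.1% of all genes were. The largest falls were in FAP (-3.45), COL3A1 (-1.75) and COL1A1 (-1.56). DCN (-0.001), LUM (0.05), PDGFRB (0.05) and VIM (-0.14) were not called with UK5099. The part of these marker differences in the carrier results was not tested. In bulk RNA, fewer cells expressing a gene and less of its RNA per cell cannot be told apart.

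The summed level of the family was lower in each irradiated library than in each Prol library. It was 2287 ± 97.7 CPM (SD, n = 3) in Prol, 1919 ± 8.95 in Sen(IR), 1842 ± 48.6 with UK5099 and 1948 ± 27.7 with CTPI2. The lowest Prol library, at 2212 CPM, lay above the highest of the 9 irradiated libraries, at 1967 CPM. The phosphate carrier SLC25A3 alone held 500.0 CPM of the Prol sum and 356.5 CPM of the Sen(IR) sum. SLC25A5 held 178.8 and 77.4 CPM of these sums, and SLC25A6 238.9 and 176.7 CPM. The sum thus follows its most abundant members, and the median log2 fold change of the 45 tested members after irradiation was -0.042.

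Levels of different genes were compared per kilobase of the canonical transcript (CPM per kilobase). On this scale SLC25A6 was the leading member in Sen(IR), at 121.8 ± 3.04, followed by the outer membrane protein MTCH1 at 102.1 ± 1.37. SLC25A3 (59.6 ± 1.08) and SLC25A5 (59.2 ± 2.46) came next, and their ranges of 58.5 to 60.7 and 56.7 to 61.6 overlapped. MTCH2 followed at 51.1 ± 0.882. SLC25A32, SLC25A11 and SLC25A46 stood at 23.7 ± 1.51, 20.8 ± 1.25 and 20.4 ± 1.31, and the ranges of SLC25A32 and SLC25A11 overlapped, as did those of SLC25A11 and SLC25A46. In Prol the second place belonged to SLC25A5, at 136.8 ± 13.8 CPM per kilobase, and the ranges of SLC25A5 and SLC25A6 did not overlap. The lowest tested members in Sen(IR) were UCP3 at 0.224 ± 0.0712 and SLC25A34 at 0.208 ± 0.0721 CPM per kilobase, which overlapped. These ranks depend on the transcript lengths used, such as 5984 bases for SLC25A3 and 1451 for SLC25A6. Without division by length SLC25A3 stood above SLC25A6 in Sen(IR), at 356.5 against 176.7 CPM.

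**Figure D1:**
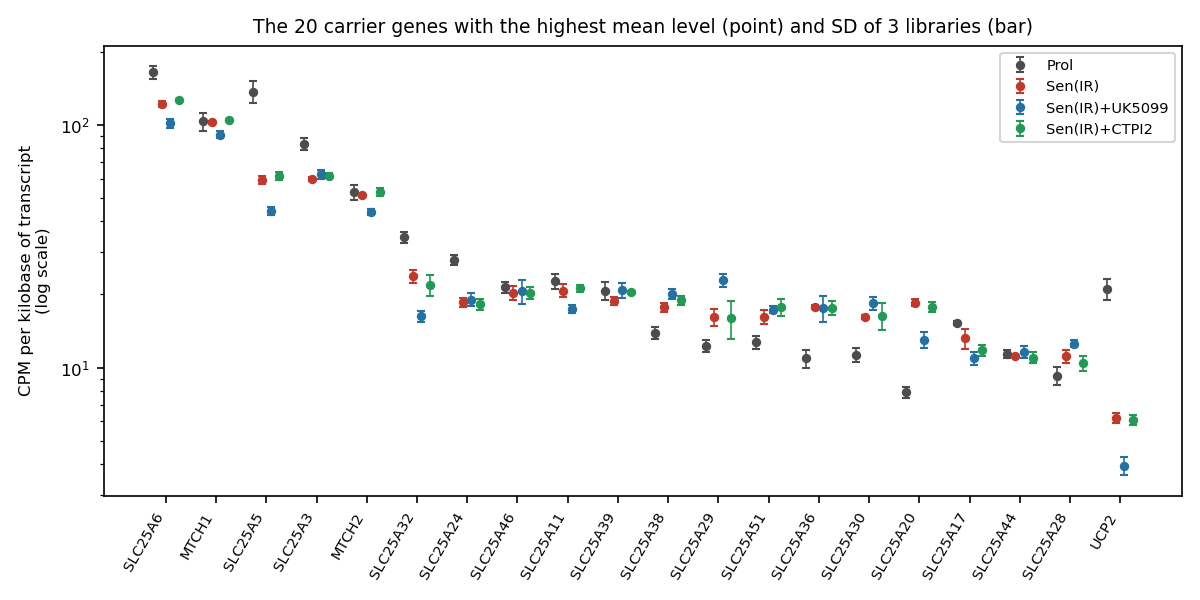
Level of the 20 carrier genes with the highest mean over the groups, in CPM per kilobase of canonical transcript on a log axis; points are group means and bars the SD of 3 libraries. SLC25A6 leads in Sen(IR) at 121.8, SLC25A5 goes from 136.8 in Prol to 59.2 in Sen(IR), and UCP2, at the far right, has the widest spacing between Prol and the irradiated groups.

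After irradiation 20 of the 45 tested members were called. Of these 9 were higher (20%, against 24.8% of all genes tested) and 11 were lower (24.4%, against 22.4%), shares near those of the whole table. Without the fold limit, 29 members had an adjusted p under 0.05, where 68.7% of all genes did. The median log2 fold change of the 45 members was -0.042, and that of all genes was 0.014. Upper-quartile scaling shifted the median of all genes by 0.121, and with it 11 members were called higher and 8 lower, in place of 9 and 11. With UK5099, 4 members were called higher (8.89%, against 8.76% of all genes) and 4 lower (8.89%, against 12.1%), and 22 passed the adjusted p at any fold, where 45.4% of all genes did. Without the third Sen(IR) library 1 member was called higher, SLC25A40, and 4 lower. Without the third UK5099 library 2 were called higher and 4 lower. Without the first Sen(IR) library 2 were called higher and 5 lower. With all libraries kept, upper-quartile scaling gave 4 higher and 3 lower with UK5099, and RLE (relative log expression) scaling in edgeR 3 higher and 4 lower. With CTPI2 no member was called by edgeR or by DESeq2, where 0.0185% of all genes were called higher, 0.148% lower and 0.486% passed the adjusted p at any fold.

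**Figure D2:**
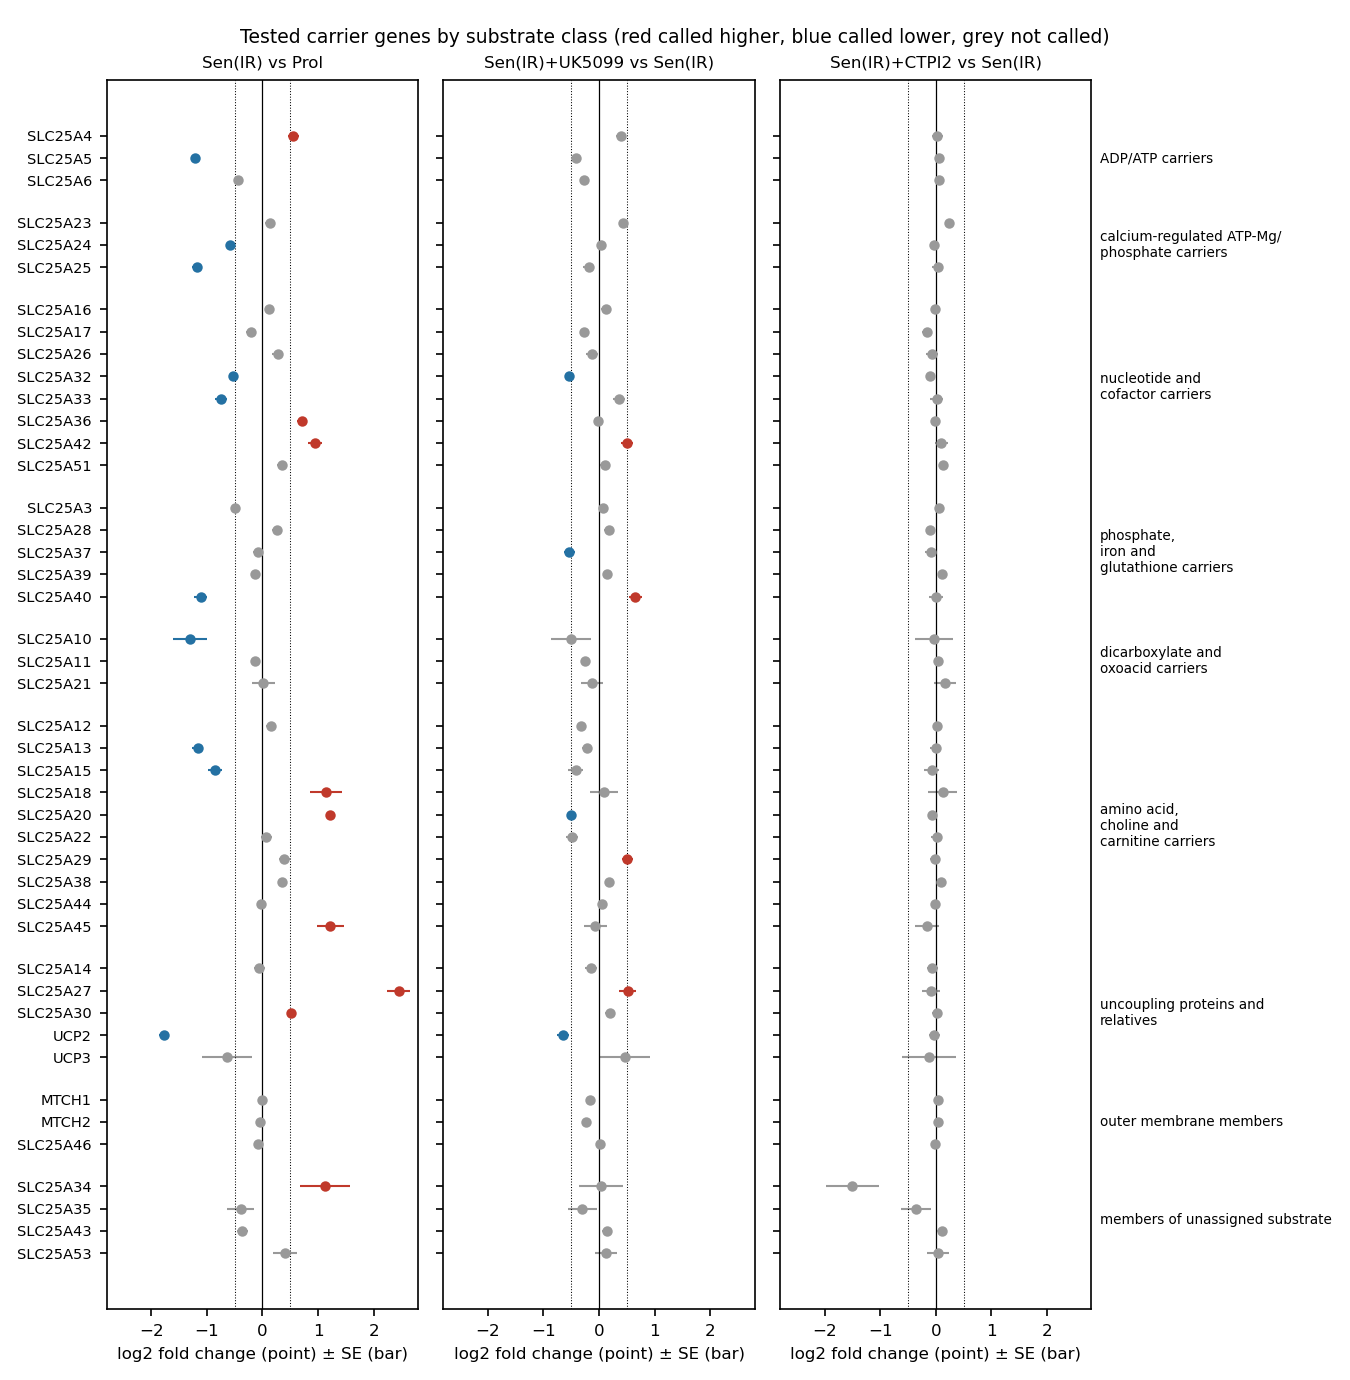
Log2 fold change (points) and its SE (bars) of 44 of the 45 tested carrier genes in 3 comparisons, grouped by substrate class; dotted lines mark the fold limit of 0.5 on either side of 0. The first panel runs from UCP2 at -1.77 to SLC25A27 at 2.45, the second from -0.65 to 0.66, and in the third all points except SLC25A34 and SLC25A35 lie within 0.3 of 0.

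The ADP/ATP carriers, which exchange matrix ATP for cytosolic ADP, did not move together. SLC25A5, the isoform of dividing cells, held 170.5, 166.4 and 199.6 CPM in Prol and 80.5, 77.7 and 74.1 CPM in Sen(IR), with no overlap. It fell by 1.21 ± 0.064 (SE) on the log2 scale (edgeR adjusted p = 1.56e-13). SLC25A4, the isoform of heart and skeletal muscle, held 12.6, 12.2 and 14.6 CPM in Prol and 20.04, 16.2 and 21.7 CPM in Sen(IR), again with no overlap, and was called higher (0.55 ± 0.099, edgeR adjusted p = 3.65e-05). Without the third Sen(IR) library its log2 fold change was 0.46, below the fold limit. SLC25A6, the third tested isoform, held 227, 235 and 255 CPM in Prol and 172, 179 and 179 CPM in Sen(IR); its log2 fold change of -0.43 ± 0.052 had an edgeR adjusted p of 1.32e-07 but did not reach the fold limit. SLC25A31, the testis isoform, was not tested.

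UK5099 was accompanied by further differences, with the sign seen after irradiation, in all these isoforms, all below the fold limit. All 3 passed the adjusted p at any fold, where 45.4% of all genes did. SLC25A5 held 58.1, 59.8 and 55.4 CPM with UK5099 (log2 fold change -0.42 ± 0.066 against Sen(IR), edgeR adjusted p = 1.72e-05). SLC25A4 held 25.5, 26.2 and 24.8 CPM (0.40 ± 0.093, edgeR adjusted p = 0.00126), and SLC25A6 144, 154 and 142 CPM (-0.27 ± 0.052, edgeR adjusted p = 0.000238). For each isoform the UK5099 libraries lay outside the range of the Sen(IR) libraries, and the share of all genes that do so was not counted. With CTPI2 the log2 fold changes were 0.06, 0.03 and 0.05, with edgeR adjusted p of 0.93, 0.98 and 0.92.

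Expressed as shares of the ADP/ATP carrier counts per kilobase, SLC25A4 made up 0.978% ± 0.0275 (SD, n = 3) in Prol, 2.36% ± 0.355 in Sen(IR), 3.82% ± 0.0558 with UK5099 and 2.32% ± 0.0559 with CTPI2. The share of SLC25A5 was 44.9% ± 1.27 in Prol, 32.0% ± 1.38 in Sen(IR) and 29.2% ± 0.455 with UK5099. SLC25A6 made up the rest, from 54.1% ± 1.29 in Prol to 66.9% ± 0.498 with UK5099. The size of these shares depends on the canonical lengths used, 4415 bases for SLC25A4, 1307 for SLC25A5 and 1451 for SLC25A6. The ratio of SLC25A4 to the other pair of isoforms was 2.43-fold higher in Sen(IR) than in Prol and 1.65-fold higher with UK5099 than in Sen(IR), without overlap between libraries. Both differences had an exact two-sided permutation p of 0.1 (0.133 after adjustment over 4 comparisons), the smallest that 3 libraries against 3 allow. The reads of SLC25A5 could include some of its antisense neighbour SLC25A5-AS1, which shares 13.2% of its exon bases; strandedness of the counting is not given in the sources used here.

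**Figure D3:**
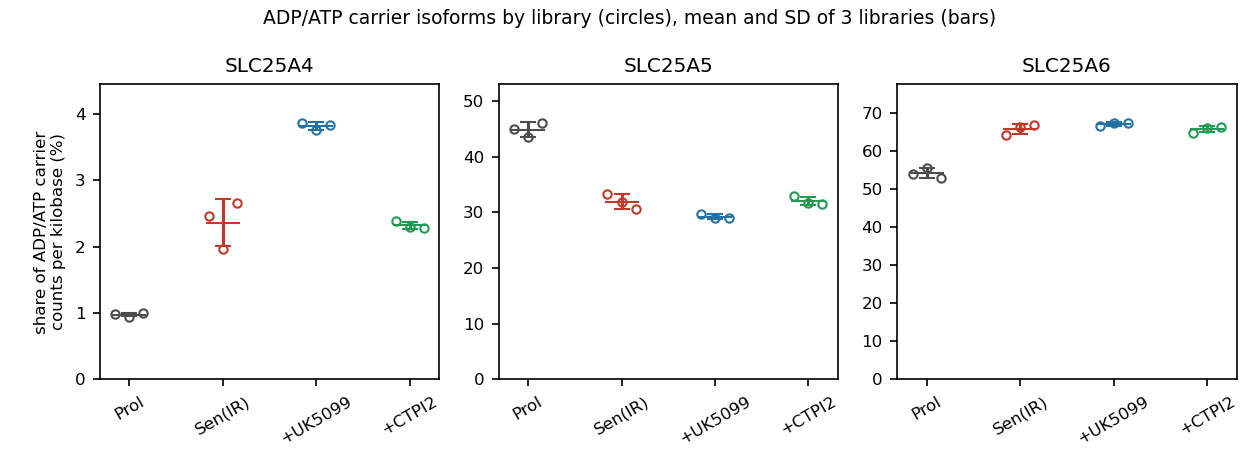
Share of each ADP/ATP carrier isoform in the counts per kilobase of all 3 tested isoforms, in percent; circles are libraries, and bars are the mean and SD of 3 libraries. The SLC25A4 circles lie near 0.978% in Prol and 3.82% with UK5099, while the SLC25A5 circles go from 44.9% in Prol to 29.2% with UK5099.

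SLC25A4 lies at chr4:185143266-185150382 and SLC25A5 at chrX:119468422-119471396, both on the forward strand of GRCh38. The sequence just before each gene is shown because the isoforms were called in opposite directions after irradiation. Sequences here and below come from RefSeq (GRCh38.p14), taken from up to 250 bases before the RefSeq start and stopped at the first annotated base of the gene, and promoters of 43 of the 51 members were matched. Capitals mark matches, on either strand, to a fixed set of short motifs: the CCAAT box bound by NF-Y, the E-box CACGTG, the cyclic AMP response element TGACGTCA, the antioxidant response element core TGACNNNGC, the NRF1 core GCATGCGC, the ATF4 form TGATGNAA and the E2F forms TTTCCCGC and TTTGGCGC. The TGAC start of the cyclic AMP response element is shared with the antioxidant response element core. Their later letters differ, so the same TGAC cannot match both.
SLC25A4: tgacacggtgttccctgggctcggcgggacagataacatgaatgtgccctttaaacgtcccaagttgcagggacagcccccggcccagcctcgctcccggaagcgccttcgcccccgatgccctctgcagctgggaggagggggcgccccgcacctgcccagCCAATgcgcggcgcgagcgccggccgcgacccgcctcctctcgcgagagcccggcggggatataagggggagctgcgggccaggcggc
SLC25A5: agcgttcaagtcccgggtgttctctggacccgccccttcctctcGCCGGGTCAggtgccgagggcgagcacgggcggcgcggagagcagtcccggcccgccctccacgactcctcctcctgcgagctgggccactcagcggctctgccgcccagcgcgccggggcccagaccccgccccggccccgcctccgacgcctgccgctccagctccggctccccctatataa
The SLC25A4 stretch holds a CCAAT box, which 32% of all 35116 promoters and 18 of the 43 matched members (41.9%) also hold. The SLC25A5 stretch holds the antioxidant response element core on the reverse strand, found in 10.9% of all promoters and in 5 of the 43 members (11.6%). A match is a description of the letters, not evidence of binding. Members without a matched promoter included SLC25A2, SLC25A16, SLC25A30, SLC25A32, SLC25A35, SLC25A37 and SLC25A41.

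The calcium-regulated carriers, which exchange ATP-Mg for phosphate, fell in 2 of 3 tested members after irradiation, where 22.4% of all genes were called lower. SLC25A25 held 35.2, 29.1 and 30.7 CPM in Prol and 15.6, 14.3 and 12.003 CPM in Sen(IR), with no overlap, and fell by 1.18 ± 0.095 on the log2 scale (edgeR adjusted p = 2.14e-10). SLC25A25 shares 15.5% of its exon bases with other genes, SLC25A25-AS1 among them. SLC25A24, the leading member of the class per kilobase, held 122, 112 and 119 CPM in Prol and 78.0, 76.3 and 82.8 CPM in Sen(IR). It fell by 0.57 ± 0.060 (edgeR adjusted p = 1.67e-08), and with upper-quartile scaling its value of -0.45 missed the fold limit. SLC25A23 was not called after irradiation (0.14), and with UK5099 it had a log2 fold change of 0.44 ± 0.080 (edgeR adjusted p = 0.000104), below the fold limit.

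Among the nucleotide and cofactor carriers, 2 of 9 tested members were called higher (22.2%, against 24.8% of all genes) and 3 lower (33.3%, against 22.4%) after irradiation. SLC25A36 and SLC25A33, related carriers of pyrimidine nucleotides, were called in opposite directions. SLC25A36 held 58.5, 68.4 and 59.5 CPM in Prol and 100.3, 100.5 and 103 CPM in Sen(IR) (log2 fold change 0.71 ± 0.076, edgeR adjusted p = 2.34e-08). SLC25A33 held 16.9, 12.7 and 14.2 CPM in Prol and 8.44, 9.28 and 8.52 CPM in Sen(IR) (-0.74 ± 0.11, edgeR adjusted p = 2.02e-06). Neither pair of groups overlapped. With UK5099 SLC25A33 stood at 10.8, 11.6 and 11.2 CPM, between the other groups (0.35 ± 0.11 against Sen(IR), edgeR adjusted p = 0.0103, below the fold limit), while SLC25A36 was at 88.3, 99.7 and 112 CPM, overlapping Sen(IR).

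The sequences before these paralogs are shown because they share a motif set although the genes were called in opposite directions. The SLC25A33 stretch is at chr1:9539215-9539464 and the SLC25A36 stretch is at chr3:140941586-140941829, both forward strand.
SLC25A33: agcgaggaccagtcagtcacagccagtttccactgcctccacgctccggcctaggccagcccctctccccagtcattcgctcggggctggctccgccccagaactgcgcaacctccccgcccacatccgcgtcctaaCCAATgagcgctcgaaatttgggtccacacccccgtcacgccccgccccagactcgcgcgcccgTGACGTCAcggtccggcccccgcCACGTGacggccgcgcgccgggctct
SLC25A36: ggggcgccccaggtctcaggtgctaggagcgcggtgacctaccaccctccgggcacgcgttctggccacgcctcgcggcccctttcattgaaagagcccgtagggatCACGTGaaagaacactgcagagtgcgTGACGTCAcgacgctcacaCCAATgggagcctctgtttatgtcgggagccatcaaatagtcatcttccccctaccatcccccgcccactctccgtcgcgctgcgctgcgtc
Each holds the E-box, the CCAAT box and the cyclic AMP response element. The last was found in 3 of the 43 matched members, the other being SLC25A25, and in 1.65% of all promoters; the E-box was found in 8 members (18.6%) and in 6.34% of all promoters. Of the remaining motifs, TTTCCCGC was found in 2 members (1.39% of all promoters), GCATGCGC in 1 (2.63%), TGATGNAA in 1 (3.14%) and TTTGGCGC in 0 (0.55%). Among matched members, the CCAAT box was in 4 of the 9 called lower after irradiation and 5 of the 8 called higher, and the antioxidant response element core in 3 of the 9 and 0 of the 8.

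SLC25A42, a carrier of coenzyme A, was called higher after irradiation, from 4.52, 5.32 and 5.28 CPM in Prol to 8.98, 10.7 and 9.41 CPM in Sen(IR) (0.94 ± 0.13, edgeR adjusted p = 7.35e-07). It was called higher again with UK5099, at 15.7, 12.8 and 12.6 CPM (0.50 ± 0.11, edgeR adjusted p = 0.000887). This second call stands at the fold limit, and it was lost with DESeq2 (0.496) and without the first UK5099 library (0.39), among others. SLC25A32, which carries folate and FAD and leads its class per kilobase, held 105, 94.7 and 98.6 CPM in Prol, 69.7, 63.8 and 72.3 CPM in Sen(IR), and 44.5, 49.1 and 47.5 CPM in the UK5099 libraries, with no overlap between these groups. It was called lower in both steps (-0.54 ± 0.069 and -0.54 ± 0.071, edgeR adjusted p = 4.04e-07 and 1.51e-06). The irradiation call was lost without the first Prol library (-0.49) or the second Sen(IR) library (-0.49), and with upper-quartile scaling (-0.41). SLC25A32 shares 80.8% of its exon bases with DCAF13 and a further overlapping gene, and how the counting assigned reads there is not known without its strand setting.

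The carriers SLC25A16, SLC25A17, SLC25A26 and SLC25A51, the last an NAD carrier, were not called in any comparison.

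Of the 5 carriers of phosphate, iron and glutathione, 1 was called lower after irradiation, SLC25A40 (20%, against 22.4% of all genes). In this class 0 were called higher, against 24.8% of all genes. SLC25A3, which brings phosphate into the matrix, held 476, 493 and 531 CPM in Prol and 356, 363 and 350.3 CPM in Sen(IR). The groups did not overlap and the edgeR adjusted p was 1.22e-08, but the log2 fold change of -0.49 ± 0.050 missed the fold limit. Without the first Prol library (-0.52) or the second Sen(IR) library (-0.50) it passed that limit. With UK5099 SLC25A3 stood at 368, 389.9 and 362 CPM (0.07, edgeR adjusted p = 0.294).

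SLC25A40, one of a pair of mitochondrial glutathione carriers with SLC25A39, moved in opposite directions in the 2 steps. It held 22.9, 24.0 and 25.4 CPM in Prol and 11.5, 10.8 and 11.4 CPM in Sen(IR), and fell by 1.11 ± 0.11 (edgeR adjusted p = 1.27e-08). With UK5099 it held 15.1, 16.7 and 21.0 CPM, above every Sen(IR) library and below every Prol library (0.66 ± 0.12 against Sen(IR), edgeR adjusted p = 7.44e-05). SLC25A39 was not called in either step (-0.14 and 0.15). The mean ratio of SLC25A40 to SLC25A39 per kilobase was 0.287 in Prol, 0.146 in Sen(IR) and 0.207 with UK5099.

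The mitoferrins SLC25A37 and SLC25A28 import iron. SLC25A37 overlapped between Prol and Sen(IR) (41.0 to 48.5 and 39.3 to 43.3 CPM) and was not called there (-0.08). With UK5099 it held 26.4, 28.8 and 31.4 CPM, below every Sen(IR) library (-0.54 ± 0.098, edgeR adjusted p = 0.000108), and without the first UK5099 library its value of -0.48 missed the fold limit. SLC25A28 was not called in any comparison (0.26 after irradiation and 0.18 with UK5099). The ratio of SLC25A37 to SLC25A28 per kilobase was 1.02 in Prol, 0.805 in Sen(IR) and 0.491 with UK5099.

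Among dicarboxylate and oxoacid carriers, SLC25A10, which exchanges malate or succinate for phosphate, was called lower after irradiation. It held 2.39, 2.45 and 2.303 CPM in Prol and 1.33, 0.758 and 0.784 CPM in Sen(IR), with no overlap (-1.30 ± 0.31, edgeR adjusted p = 0.000742). These levels rest on 16 to 62 counts per library, and SLC25A10 shares 46.6% of its exon bases with an overlapping gene. SLC25A11, the oxoglutarate/malate carrier and the leading member of the class, held 35.9, 38.3 and 41.3 CPM in Prol, 37.6, 34.2 and 33.7 CPM in Sen(IR) and 30.6, 29.5 and 28.5 CPM in the UK5099 libraries. It was not called in either step (-0.13 and -0.25, edgeR adjusted p = 0.0938 and 0.00516). SLC25A21, the oxoadipate carrier, was not called (0.02 and -0.12).

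Of 10 tested carriers of amino acids and carnitine, 3 were called higher (30%, against 24.8% of all genes) and 2 lower (20%, against 22.4%) after irradiation, shares near the background. The aspartate/glutamate carriers of the malate-aspartate shuttle, SLC25A12 and SLC25A13, differed from each other. SLC25A13 held 35.1, 34.1 and 40.8 CPM in Prol and 17.2, 15.9 and 16.02 CPM in Sen(IR), and fell by 1.17 ± 0.091 (edgeR adjusted p = 1.35e-10). SLC25A12 held 27.2, 26.2 and 28.3 CPM in Prol and 31.8, 27.3 and 31.5 CPM in Sen(IR), which overlapped (0.15, edgeR adjusted p = 0.0933). Their ratio per kilobase, SLC25A13 to SLC25A12, was 1.68 in Prol and 0.680 in Sen(IR), so the more abundant paralog was not the same in both groups.

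SLC25A20, which carries acylcarnitines into the matrix for fatty acid oxidation, moved in opposite directions in the 2 steps. It held 13.3, 14.5 and 14.6 CPM in Prol, 32.8, 32.0 and 34.0 CPM in Sen(IR), 21.3, 24.6 and 23.4 CPM in the UK5099 libraries and 32.9, 30.1 and 31.8 CPM with CTPI2. It was called higher after irradiation (1.22 ± 0.077, edgeR adjusted p = 3e-12) and lower with UK5099 (-0.51 ± 0.073, edgeR adjusted p = 5.49e-06), the UK5099 libraries lying between those of Prol and Sen(IR). The second call was lost without the third Sen(IR) library (-0.49), without the first UK5099 library (-0.46) and with upper-quartile scaling (-0.49). Of 7 other genes of the carnitine shuttle and fatty acid oxidation, 5 were called higher after irradiation (71.4%, against 24.8% of all genes), among them SLC22A5, the plasma membrane carnitine transporter (1.13), CPT1C (1.03) and CPT1A, which makes acylcarnitines at the outer membrane (0.82). With UK5099 1 of the 7, CPT1A, was called lower (-0.51), a share of 14.3% against 12.1% of all genes. This list was chosen with earlier results of these data known.

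SLC25A45 and SLC25A18 were called higher after irradiation at low levels. SLC25A45 held 0.852, 1.03 and 1.26 CPM in Prol and 2.89, 1.80 and 2.69 CPM in Sen(IR) (1.22 ± 0.24, edgeR adjusted p = 0.000109). SLC25A18, a glutamate carrier, held 0.810, 0.815 and 0.780 CPM in Prol and 1.56, 1.61 and 2.16 CPM in Sen(IR) (1.14 ± 0.29, edgeR adjusted p = 0.00134). Neither pair of groups overlapped, and neither gene was called with an inhibitor. SLC25A18 shares 13.2% of its exon bases with other genes.

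SLC25A15, the ornithine carrier of the urea cycle, was called lower after irradiation (13.6, 13.99 and 10.996 CPM in Prol against 6, 7.81 and 7.54 CPM in Sen(IR), -0.85, edgeR adjusted p = 2.86e-06). SLC25A38, the glycine carrier that serves heme synthesis and the leading member of this class per kilobase, held 29.9, 27.2 and 30.5 CPM in Prol and 36.9, 35.8 and 39.0 CPM in Sen(IR), without overlap, but its value of 0.35 ± 0.068 (edgeR adjusted p = 9.5e-05) missed the fold limit. SLC25A29, a carrier of basic amino acids, was called higher with UK5099, at 53.2, 49.1 and 55.4 CPM against 40, 36.4 and 34.2 CPM in Sen(IR) (0.51 ± 0.095, edgeR adjusted p = 0.000143). That call was lost without the third Sen(IR) library (0.46) or the third UK5099 library (0.47). SLC25A22, another glutamate carrier, held 13.6, 11.8 and 12.4 CPM with UK5099 and 20.4, 16.4 and 16.02 CPM in Sen(IR); its value of -0.49 (edgeR adjusted p = 0.00048) missed the fold limit and passed it without the second (-0.54) or the third (-0.55) Sen(IR) library.

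The uncoupling proteins and their relatives held the widest pair of differences in the family. UCP2, which is known to export dicarboxylates from the matrix, held 34.5, 31.3 and 38.0 CPM in Prol, 9.64, 10.5 and 10.4 CPM in Sen(IR), 7.16, 6.26 and 6.08 CPM in the UK5099 libraries and 9.51, 10.2 and 10.3 CPM with CTPI2. It fell by 1.77 ± 0.092 after irradiation (edgeR adjusted p = 1.08e-13) and by a further 0.65 ± 0.11 with UK5099 (edgeR adjusted p = 2.97e-05), and neither pair of groups overlapped. Both calls were kept under all 12 other settings, with ranges of -1.83 to -1.64 and -0.72 to -0.60.

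SLC25A27, also called UCP4 and best known from brain, held 0.810, 1.63 and 1.26 CPM in Prol, 6.36, 7.72 and 6.22 CPM in Sen(IR) and 9.39, 9.41 and 10.2 CPM in the UK5099 libraries. It was called higher after irradiation (2.45 ± 0.21, edgeR adjusted p = 4.8e-10) and again with UK5099 (0.52 ± 0.15, edgeR adjusted p = 0.00924). The second call was lost without the first (0.47) or the third (0.46) Sen(IR) library and without the third UK5099 library (0.47). The ratio of UCP2 to SLC25A27 per kilobase was 51.8 in Prol, 2.69 in Sen(IR), 2.84 with CTPI2 and 1.19 with UK5099.

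The stretches before this pair, the members with the lowest and the highest log2 fold change after irradiation, are given next. UCP2 lies on the reverse strand at chr11:73974672-73982843, with the RefSeq start upstream of that model and the stretch at chr11:73983203-73983452, printed as read on the reverse strand. The SLC25A27 stretch is at chr6:46652725-46652914 on the forward strand.
UCP2: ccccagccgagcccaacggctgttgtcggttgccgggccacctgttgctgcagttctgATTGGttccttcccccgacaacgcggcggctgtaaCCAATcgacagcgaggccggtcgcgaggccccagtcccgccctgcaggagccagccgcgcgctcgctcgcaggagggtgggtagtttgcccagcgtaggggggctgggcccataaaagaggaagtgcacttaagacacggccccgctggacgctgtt
SLC25A27: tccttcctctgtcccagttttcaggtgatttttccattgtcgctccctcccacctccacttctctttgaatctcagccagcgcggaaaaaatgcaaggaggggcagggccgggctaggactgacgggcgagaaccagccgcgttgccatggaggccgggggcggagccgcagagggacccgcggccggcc
The UCP2 stretch holds the CCAAT box once on each strand. The SLC25A27 stretch as printed holds none of the motifs searched; the CCAAT box counted for this gene among the 18 members lies in the part of its 250 bases that was not printed.

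SLC25A30, another uncoupling-related carrier and the leading one of this class per kilobase, held 41.4, 44.3 and 38.7 CPM in Prol and 59.7, 59.6 and 57.8 CPM in Sen(IR). It was called higher (0.51 ± 0.077, edgeR adjusted p = 3.79e-06), a call lost without the third Prol library (0.46) and in the fit of the compared groups alone (0.496). SLC25A14 was not called (-0.06 and -0.14). UCP3, a muscle uncoupling protein, was near the lower end of what could be tested, at 0.343 to 1.41 CPM over Prol and Sen(IR), and was not called (-0.63 ± 0.45).

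**Figure D4:**
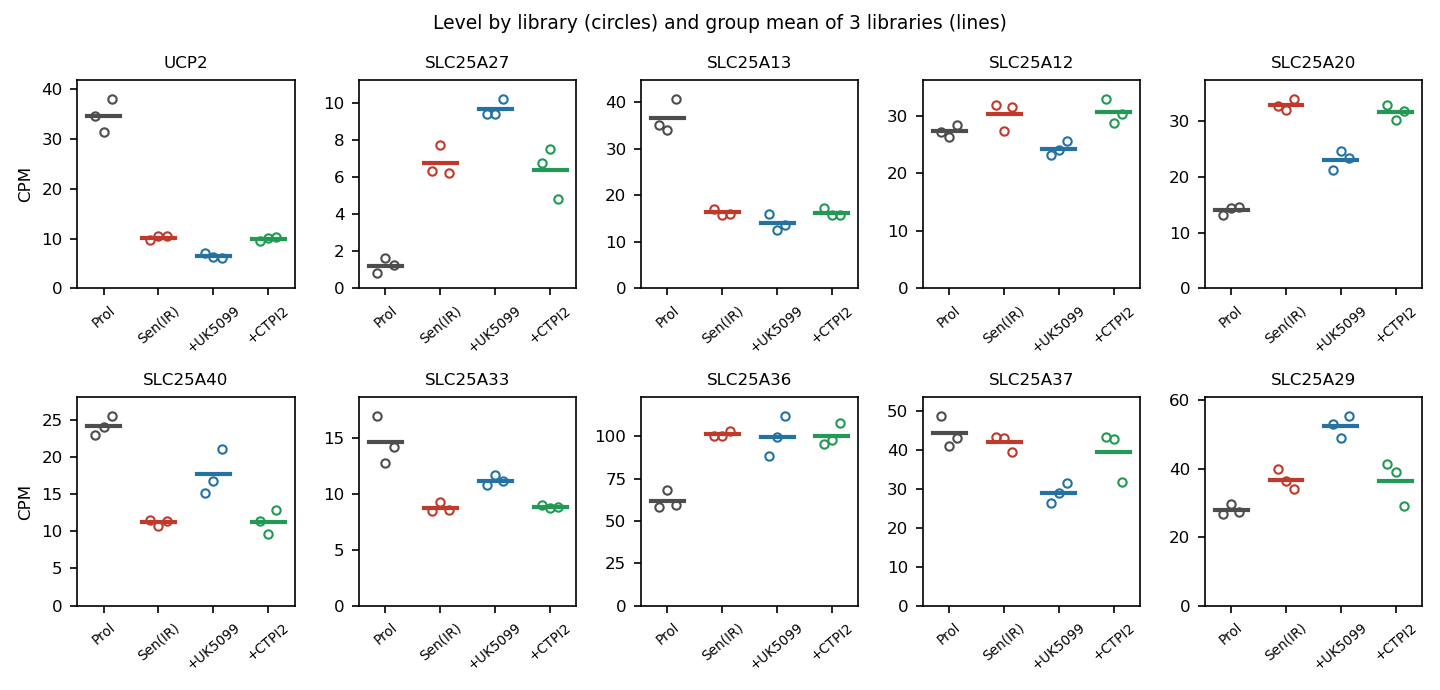
CPM of 10 carrier genes in each of the 12 libraries (circles), with lines at the group means; each panel has its own axis from 0. UCP2 is highest in Prol (31.3 to 38.0 CPM) and lowest with UK5099, SLC25A27 goes the other way, and SLC25A40 and SLC25A20 have their UK5099 libraries between those of Prol and Sen(IR).

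The outer membrane members stayed uncalled in all comparisons. MTCH1, a relative of the outer membrane insertase MTCH2, held 204, 183 and 217 CPM in Prol, 202, 199 and 197 CPM in Sen(IR) and 179, 183 and 171 CPM in the UK5099 libraries, and its log2 fold changes were -0.01 and -0.17 ± 0.055 (edgeR adjusted p = 0.831 and 0.0164). MTCH2 had -0.04 and -0.23 (edgeR adjusted p = 0.509 and 0.0016), and its UK5099 libraries lay below every Sen(IR) library. SLC25A46, a factor in mitochondrial fission and lipid transfer, had -0.07 and 0.02. At any fold, 2 of these 3 members passed the adjusted p with UK5099 (66.7%, against 45.4% of all genes). The ratio of MTCH1 to MTCH2 per kilobase was between 1.96 and 2.08 in all 4 groups.

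Of the members whose substrate was left unassigned, SLC25A34 was called higher after irradiation (1.12 ± 0.45, edgeR adjusted p = 0.0312). It held 0.213, 0.257 and 0.409 CPM in Prol and 0.756, 0.805 and 0.392 CPM in Sen(IR), which overlapped, on 5 to 17 counts per library. The call was lost without the first (0.95) or the second (1.04) Prol library and without the first (1.00) or the second (0.95) Sen(IR) library. SLC25A43, the leading member of this group per kilobase, held 23.1, 20.6 and 26.5 CPM in Prol and 18.8, 17.2 and 18.6 CPM in Sen(IR), and its value of -0.36 ± 0.095 (edgeR adjusted p = 0.00195) missed the fold limit. SLC25A35 and SLC25A53 were not called.

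For CTPI2 against Sen(IR), where no member was called, the 95% interval of the log2 fold change (estimate ± 1.96 SE) lay inside the limits of -0.5 and 0.5 for 37 of the 45 tested members. It reached or passed a limit for the other 8, all at low levels, which included SLC25A10, SLC25A18, SLC25A21, SLC25A34, SLC25A35, SLC25A45 and UCP3. A difference of that size is therefore not excluded for them. The interval of SLC25A34, from -2.43 to -0.56, lay wholly below -0.5. Only 3 members, SLC25A17, SLC25A23 and SLC25A34, had an unadjusted p under 0.05, with edgeR and DESeq2 alike finding 3. SLC25A34 held 0.263, 0.165 and 0.260 CPM with CTPI2, on 4 to 6 counts per library and below each Sen(IR) library, with a log2 fold change of -1.50 ± 0.49 (edgeR adjusted p = 0.303).

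The inhibitors were also compared with each other; the Sen(IR) libraries do not enter these fold changes but share in the estimate of the spread. With UK5099 4 members were higher than with CTPI2 (8.89%, against 8.20% of all genes) and 2 were lower (4.44%, against 11.7%); 21 passed the adjusted p at any fold, where 44.5% of all genes did. Without the third UK5099 library 2 were higher and 2 lower, without the third CTPI2 library 2 were higher and 3 lower, and without the first CTPI2 library 4 were higher and 1 lower. Without the second UK5099 library 4 were higher and 3 lower. SLC25A34 (1.54 ± 0.46, edgeR adjusted p = 0.00991), SLC25A40 (0.65), SLC25A27 (0.60) and SLC25A29 (0.52) were higher with UK5099. Against Sen(IR), SLC25A34 was not called with UK5099 (0.04, edgeR adjusted p = 0.943), and those libraries overlapped. UCP2 (-0.63) and SLC25A22 (-0.50) were lower. UK5099 and CTPI2 act on different proteins and their doses cannot be matched, so these are differences between the groups as treated.

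Genes around the family were counted from lists chosen with earlier results of these data known. Their shares are descriptions and add no independent support. Of 15 tested genes of the machinery that imports carriers, 8 were called lower after irradiation (53.3%, against 22.4% of all genes) and 2 higher (13.3%, against 24.8%). The lower ones included the small TIM chaperones TIMM10 (-1.29) and TIMM9 (-1.15) and the outer membrane channel TOMM40 (-1.05). The median over the 15 genes was -0.533 on the log2 scale. With UK5099 1 of the 15, TOMM40, was called lower (-0.81), a share of 6.67% against 12.1% of all genes. Of 23 other mitochondrial transporters, 7 were called lower after irradiation (30.4%, against 22.4% of all genes) and 2 higher (8.70%, against 24.8%). The lower ones included the serine transporter relative SFXN2 (-3.08) and MCUB (-0.97). The higher ones were SLC25A1 (0.63 ± 0.059) and MPC2 (0.55 ± 0.071), while MPC1 was not called (-0.15). With UK5099 2 of the 23 were called higher, ABCB6 (0.62) among them, a share of 8.70% that is near the 8.76% of all genes.

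Of 8 tested genes of mitochondrial one-carbon metabolism, which uses the folate that SLC25A32 imports, 4 were called lower after irradiation (50%, against 22.4% of all genes), among them MTHFD2 (-1.34), MTHFD1L (-0.99) and SHMT2 (-0.87). With UK5099 3 were called lower (37.5%, against 12.1% of all genes), namely MTHFD2 (-0.94), SHMT2 (-0.92) and ALDH1L2 (-0.75). Of 13 genes of mitochondrial heme and iron-sulfur synthesis, 3 were called higher (23.1%, against 24.8% of all genes) and 2 lower (15.4%, against 22.4%) after irradiation, shares near or below the background, with FDXR (1.04), ISCU (1.01) and PPOX (0.82) higher. With UK5099 FECH, which inserts iron into protoporphyrin, was called higher (0.59), and 1 of the 13 was called lower (7.69% each, against 8.76% and 12.1% of all genes). Of 10 regulators of mitochondrial biogenesis, 3 were called lower after irradiation (30%, against 22.4% of all genes) and 1 higher (10%, against 24.8%). NRF1 (-0.95), PPRC1 (-0.90) and TFAM (-0.73) were lower and PPARGC1A was higher (0.70, edgeR adjusted p = 0.0311). With UK5099 PPARGC1A alone was called lower (-1.30), a share of 10% against 12.1% of all genes. With CTPI2 0 genes of these lists were called.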

How the data were processed

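RNA from 12 libraries of MRC5 fibroblasts (4 groups of 3) was sequenced by the study as paired ends. According to the submitters' processing notes, Trimmomatic 0.36, STAR 2.5.2b and featureCounts (Subread 1.5.2) were used with GRCh38; the strand setting of the counting is not given in the sources used here. The deposited values are raw counts per gene, which the authors had not normalized. Testing used edgeR 4.0.16 under R 4.3.3: low genes were removed with filterByExpr by group, libraries were scaled by TMM, and 1 quasi-likelihood model took all 12 libraries, with no term for replicate number. Each SE was derived from the estimate and its F value (|estimate| over root F). Common dispersion was 0.00374, a coefficient of variation of 6.12%. Gene positions, lengths and exon overlaps came from GENCODE annotation on GRCh38; ratios of isoforms were compared by exact permutation. Scripts were tested on simulated data.

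The members and gene lists were chosen with earlier results of these data known. Full values were given for members called with an absolute log2 fold change of at least 1 and for the leading member of each substrate class, shorter ones for other called members, and at most 3 called genes of each other list per comparison, besides MPC1, MPC2 and SLC25A1. Values of members that missed the fold limit, and that of PPARGC1A after irradiation, were chosen after they were seen. Alternatives were DESeq2 1.42.0, scaling by RLE or by the upper quartile, omission of the filter, only the compared groups, other limits, a replicate block and leaving out each library. Rows of annotated pseudogenes were not added to their parent genes. No column of another sample was present (0 columns). Results for a few genes of the family and lists are not reported here.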

Additional observations from a re-analysis of the deposited data

Results flagged for a closer look

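The response to UK5099 and that to CTPI2 differed for 6 members in the direct comparison of the inhibitor groups by edgeR's quasi-likelihood test. SLC25A34 was higher with UK5099 by 1.54 on the log2 scale, at 0.455 to 0.890 CPM against 0.165 to 0.263 CPM, and without the third UK5099 library the value was 1.29 with an adjusted p of 0.0573. Against Sen(IR), its log2 fold change was 0.04 with UK5099 and -1.50 with CTPI2, and neither was called. Its CTPI2 libraries held 4 to 6 counts each. SLC25A40 was higher by 0.65, with 15.1 to 21.0 CPM against 9.57 to 12.8 CPM. SLC25A27 was higher by 0.60 (9.39 to 10.2 against 4.84 to 7.50 CPM) and SLC25A29 by 0.52 (49.1 to 55.4 against 29.0 to 41.5 CPM); without the third CTPI2 library these values were 0.44 and 0.38, below the fold limit, and without the third UK5099 library that of SLC25A29 was 0.48. UCP2 had -0.63 (6.08 to 7.16 against 9.51 to 10.3 CPM). SLC25A22 had -0.50 (11.8 to 13.6 against 17.6 to 18.2 CPM), and without the second (-0.46) or the third (-0.49) UK5099 library or the first CTPI2 library (-0.49) it missed the fold limit. The libraries did not overlap for any of the 6. These members were picked by their calls in this same comparison, so the lack of overlap adds no support. The share of all genes without overlap was not counted. Of the tested members 8.89% were called higher and 4.44% lower here, against 8.20% and 11.7% of all genes.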

How the results depend on the processing

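Of 34 calls of a member in a comparison, 19 were kept under all 12 other settings, 15 were lost in at least 1 and 0 reversed. Counts of called members moved with the fold limit. At an absolute log2 fold change over 1 there were 11 after irradiation, 0 with UK5099 and 1 between the inhibitors. With no fold limit there were 22 with UK5099 and 21 between the inhibitors. With an unadjusted p and the fold limit, 1 was called with CTPI2 (SLC25A34). Leaving out each library in turn gave 18 to 19 called members after irradiation, 5 to 9 with UK5099 (5 without the third Sen(IR) library), 0 with CTPI2 and 4 to 7 between the inhibitors (4 without the third UK5099 library). The isoform ratio of SLC25A4 kept its direction in both steps when a library was left out, with log2 differences of 1.19 to 1.41 and 0.60 to 0.82; with CTPI2 they were -0.143 to 0.078, around a difference of -0.014, and between the inhibitors 0.73 to 0.76. The ratio settings (each library left out, no division by length) were added after seeing the data. Residual correlations of same-numbered libraries were small (-0.015 to 0.042). For the third libraries they lay above those with differently numbered libraries in each comparison. These values cannot settle whether the numbers pair the libraries. A fit with the replicate block gave 20, 8, 0 and 6 called members, equal to the counts without it. Upper-quartile scaling shifted irradiation values by 0.121 and took the share of higher among called members from 45% to 57.9%, and between the inhibitors from 66.7% to 80%. Depth limits members under about 1 CPM, such as SLC25A34 and UCP3, where 3 counts equal 0.111 to 0.147 CPM.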
